A study of Mus musculus with 5 samples.

Results

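The genes described here carry calcium across the surface membrane of the embryonic heart cell: the calcium channel pore genes Cacna1c, Cacna1d, Cacna1g and Cacna1h, the channel subunit genes Cacnb2 and Cacna2d1, and the sodium-calcium exchanger gene Slc8a1. They were taken by symbol from a table of RefSeq gene counts, and all 7 were found among its 18307 genes. All 7 passed the filter on low counts, as did 13829 genes in all, and their 28 RefSeq transcripts were all among the 18418 transcripts tested. RNA came from heart ventricles of CD-1 mouse embryos, an outbred strain, at embryonic day (E) 10.5. Daily injections of the dams began at E6.5 and ended at E9.5, and were either 20 mg/kg caffeine, an adenosine receptor blocker, or 0.9% NaCl as vehicle. Both groups were injected and differed in the agent. There were 2 vehicle and 3 caffeine libraries, and each was a pool of ventricles from embryos of shared dams, so differences between single embryos cannot be seen. The number of embryos or dams in a pool is not given in the sources used here.

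In a working heart cell, depolarization opens voltage-gated calcium channels, calcium enters, and the sodium-calcium exchanger carries it out again in exchange for sodium. L-type channels (the pores encoded by Cacna1c and Cacna1d) open at stronger depolarization and carry the main calcium current of the myocardium, while T-type channels (Cacna1g and Cacna1h) open nearer to the resting potential and are abundant in the embryonic heart. A beta subunit such as that of Cacnb2 binds the pore from inside the cell, an alpha2delta subunit such as that of Cacna2d1 sits on its outer face, and both raise the number of channels at the surface.

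The pore genes differ at the ring of acidic residues that selects calcium, 1 from each of the 4 repeats of the protein. In repeats 3 and 4, L-type pores have glutamate and T-type pores aspartate, the change by which the classes are told apart in sequence. The coding stretches around that position in repeat 3 are shown because the levels below are split by these classes. They were read from GENCODE M21 transcripts (mm10) and have the codon of the filter residue in capitals.
Cacna1c: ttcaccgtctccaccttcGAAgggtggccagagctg
Cacna1d: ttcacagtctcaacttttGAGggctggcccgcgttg
Cacna1g: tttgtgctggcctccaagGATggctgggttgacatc
Cacna1h: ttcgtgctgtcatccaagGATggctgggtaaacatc
The stretches lie on the minus strand in coding exons at chr6:118654452-118656144 (Cacna1c, broken by an intron), chr14:30099240-30100728 (Cacna1d, broken by an intron), chr11:94426456-94426491 (Cacna1g) and chr17:25383493-25383528 (Cacna1h). Cacna1g and Cacna1h shared 31 of 36 bases here and Cacna1c and Cacna1d 27 of 36. Pairs of 1 L-type and 1 T-type gene shared between 15 and 18 of 36. The classes were less far apart in repeat 2, where Cacna1g and Cacna1h shared 29 of 36 bases, as did Cacna1d and Cacna1h.

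Totals of RefSeq gene counts ran from 21713372 to 25048122 per library, and correlations of log2 CPM (counts scaled to the library size) between libraries, across genes, from 0.982 to 0.992. No pair of libraries agreed within sampling noise. Heart muscle markers summed to 38197 and 34608 CPM in vehicle pools and to 30732, 31597 and 31928 CPM in caffeine pools, without overlap. Of these markers 9 of 10 were lower, and 0 of 10 passed an adjusted p of 0.05 (edgeR). Among all 13829 genes tested 6496 were lower, and values of the groups were fully apart in 20.4%. For the other marker lists with tested genes the sums of the groups overlapped. The ventricular list (Myl2, Myl3, Irx4, Hey2) summed to between 5271 CPM (caffeine replicate 3) and 7919 CPM (vehicle replicate 1). Erythroid markers summed to 10683 and 6148 CPM in vehicle pools and to 8435, 6468 and 10199 CPM in caffeine pools. Atrial and sinus venosus markers summed to 121 and 148 CPM in vehicle pools and to 132, 160 and 194 CPM in caffeine pools. Of these, Sln was at 3 counts or fewer in every library. All 4 skeletal muscle markers (Myog, Myod1, Myf5, Pax3) were likewise at 3 counts or fewer. Hepatic markers summed to 119 CPM in vehicle replicate 2 and to between 7.53 and 38.8 CPM in the others. In pooled tissue, fewer cells of a type and less RNA per cell cannot be told apart.

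Slc8a1 stood far above the channel genes in every library. Levels of different genes are compared per length, as CPM per kilobase of the longest coding transcript model. Slc8a1 was between 91.0 and 136 CPM per kilobase. Cacna1h was between 18.2 and 26.3, Cacnb2 between 10.9 and 13.5, and Cacna1c between 8.76 and 11.8 CPM per kilobase. Cacna2d1 lay between 3.74 and 5.93, Cacna1d between 1.56 and 2.33, and Cacna1g between 0.260 and 0.441 CPM per kilobase. This order held in 5 of 5 libraries. Only the neighbours Cacnb2 and Cacna1c had ranges over the libraries that overlapped, though Cacnb2 was the higher in each library. Against the next member, Slc8a1 was 5.04 times higher by the mean of the libraries. This ratio used a Slc8a1 model of 18464 bases and depends on that length, as given below.

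**Figure D1:**
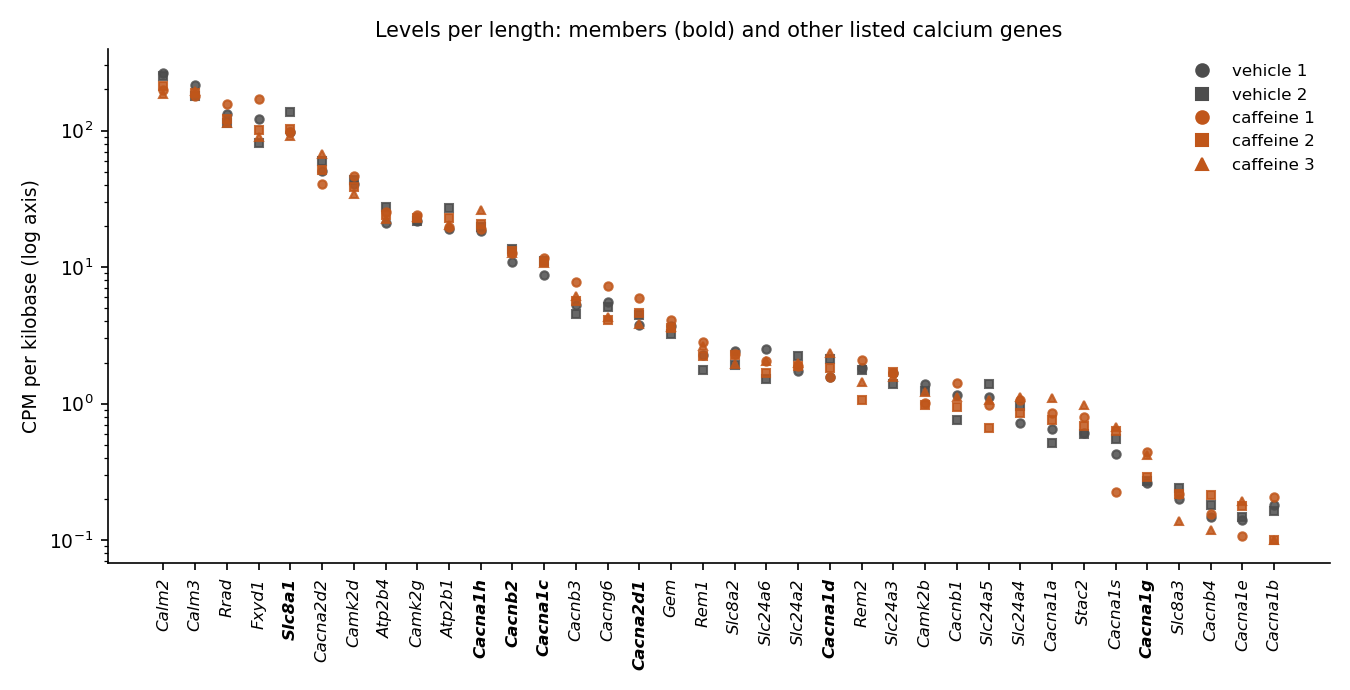
CPM per kilobase on a log axis for the 7 members (bold) and other listed calcium genes with a mean of at least 1 CPM, 36 genes in order of their mean over the libraries, with 1 point per library. Slc8a1 is at 91.0 to 136 and Cacna1g at 0.260 to 0.441, and for most genes the vehicle and caffeine points lie on each other.

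Among the pores, the T-type gene Cacna1h was the most abundant and the L-type gene Cacna1c came next. Cacna1h was between 1.61 and 2.44 times the Cacna1c level per length. Shares were taken of the RNA of the 4 member pore genes per length, leaving out other pore genes such as Cacna1a and Cacna1s. The T-type genes made up 64.2% and 60.3% of it in vehicle pools and 59.3%, 62.3% and 67.1% in caffeine pools. The groups overlapped, with a difference of 0.67 percentage points (62.2% ± 2.74, SD, against 62.9% ± 3.93). Within the T-type class nearly all RNA was Cacna1h, 98.6% ± 0.0355 (SD) with vehicle and 98.3% ± 0.46 with caffeine. Cacna1d was 15.7% ± 0.749 (SD) of the RNA of Cacna1c and Cacna1d with vehicle and 14.7% ± 3.04 with caffeine. Exact permutation tests of these 3 shares and of the ratio of Slc8a1 to Cacna1c gave adjusted p values of 0.8 to 1, two-sided over the 4 measures. With 2 against 3 libraries the smallest p such a test allows is 0.2.

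No member changed past an adjusted p of 0.05 in the comparison of caffeine with vehicle (edgeR quasi-likelihood test, adjusted p = 0.999 for each of the 7). Over all genes tested, 0.00723% passed. At an unadjusted p under 0.05 the count of members was also 0, beside 5.2% of all genes. By the fitted values 6 members were higher and 1, Slc8a1, was lower after caffeine, with a median log2 fold change of 0.17 beside 0.01 over all genes. Values of vehicle and caffeine pools were fully apart in 1 of the 7 members, Cacna1g, against 20.4% of all genes tested.

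Cacna1c encodes the pore of the main cardiac L-type channel (chr6:118592296-119196409, minus strand). It was at 71.0 and 89.5 CPM in vehicle pools and at 95.3, 87.6 and 87.4 CPM in caffeine pools. Vehicle replicate 1 was the lowest and the other vehicle library lay within the caffeine values. The log2 fold change was 0.17 (SE 0.14, 95% interval -0.14 to 0.47), so that on a linear scale the interval ran from 0.909 to 1.39 times vehicle. Without vehicle replicate 1 it was 0.0082. Dcp1b overlaps the Cacna1c start on the other strand, with 152 to 262 counts. Whether counting used strand is not given in the sources used here.

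Cacna1d, the L-type pore that opens at less strong depolarization and serves in pacemaker cells, lies at chr14:30039939-30491156 (minus strand). Its levels were 13.6 and 18.6 CPM with vehicle and 13.5, 15.9 and 20.2 CPM with caffeine. The caffeine libraries held both the lowest and the highest value. The highest was caffeine replicate 3, where atrial and sinus venosus markers were highest too, and their part in the Cacna1d level was not tested. The log2 fold change was 0.04 (SE 0.20, 95% interval -0.40 to 0.49), and it was negative without vehicle replicate 1 (-0.17) or without caffeine replicate 3 (-0.13). Dcp1a overlaps its start on the other strand with 1039 to 1267 counts, more than the 326 to 446 counts of Cacna1d itself.

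Cacna1h, the main T-type pore gene here (chr17:25374287-25433783, minus strand), was at 150.1 and 162 CPM with vehicle and at 156, 169 and 217 CPM with caffeine. Caffeine replicate 3 stood above the other 4 libraries, which lay close together. In that library atrial and sinus venosus markers were highest too, at 194 CPM, and the ventricular list was lowest, at 5271 CPM. Their part in the Cacna1h level was not tested. The log2 fold change was 0.21 (SE 0.15, 95% interval -0.12 to 0.54). Without caffeine replicate 3 it was 0.06.

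Cacna1g, the other T-type pore gene (chr11:94408391-94474198, minus strand), was scarce, with 50 to 89 counts per library. It measured 2.18 and 2.28 CPM with vehicle and 3.70, 2.45 and 3.54 CPM with caffeine. All 3 caffeine values were higher than both vehicle values, and caffeine replicate 2 only just so. The log2 fold change was 0.53 (SE 0.29, 95% interval -0.09 to 1.16), the largest of the members, with an edgeR p of 0.0888 before adjustment. Cacna1g is also used by neurons. Neuronal markers summed to 16.3 and 15.0 CPM with vehicle and to 9.59, 21.3 and 25.4 CPM with caffeine, and their part in the result was not tested.

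The subunit genes varied as much within a group as between groups. Cacnb2 (chr2:14604306-14987908, plus strand) was at 43.2 and 53.2 CPM with vehicle and at 49.9, 51.5 and 49.7 CPM with caffeine. All caffeine values fell between the vehicle values, and the log2 fold change was 0.06 (SE 0.14, 95% interval -0.25 to 0.37), or -0.082 without vehicle replicate 1. Gm13315, a pseudogene inside Cacnb2 on the same strand, had 640.03 and 474 counts with vehicle and 363, 387 and 303 counts with caffeine, and its part in the Cacnb2 count was not tested. Cacna2d1 (chr5:15934691-16374511, plus strand) was at 27.8 and 33.2 CPM with vehicle and at 44.1, 34.0 and 28.3 CPM with caffeine. Caffeine replicate 1 was the highest library, and the log2 fold change was 0.22 (SE 0.19, 95% interval -0.19 to 0.63). In the same library epicardial markers were highest too, at 490 CPM against 337 to 404 CPM in the others, and their part in the Cacna2d1 level was not tested. Without caffeine replicate 1 the Cacna2d1 log2 fold change was 0.03.

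Slc8a1, which encodes the exchanger of the heart muscle membrane (chr17:81373105-81738377, minus strand), was at 1793 and 2517 CPM with vehicle and at 1791, 1886 and 1681 CPM with caffeine. Vehicle replicate 2 was the highest by far, and vehicle replicate 1 lay among the caffeine libraries. The log2 fold change was -0.27 (SE 0.15, 95% interval -0.60 to 0.06), with an edgeR p of 0.0967 before adjustment. Without vehicle replicate 2 it was -0.03, and without vehicle replicate 1 it was -0.50. Relative to Cacna1c in the same library, the log2 ratio of Slc8a1 per length was 3.47 and 3.63 with vehicle and 3.04, 3.24 and 3.08 with caffeine, so the groups did not overlap. The difference of -0.43 had an exact permutation p of 0.2, which is the smallest this design allows, and an adjusted p of 0.8. With Ensembl counts the difference was -0.084. Heart muscle markers, given above, were also lower in all caffeine libraries. With the mean of their log2 CPM as a covariate the Slc8a1 log2 fold change was -0.66 (edgeR adjusted p = 0.877). The summed markers of the groups did not overlap. Overlap of their mean log2 CPM, the covariate, was not examined, so marker level and treatment may not be separable in that fit.

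**Figure D2:**
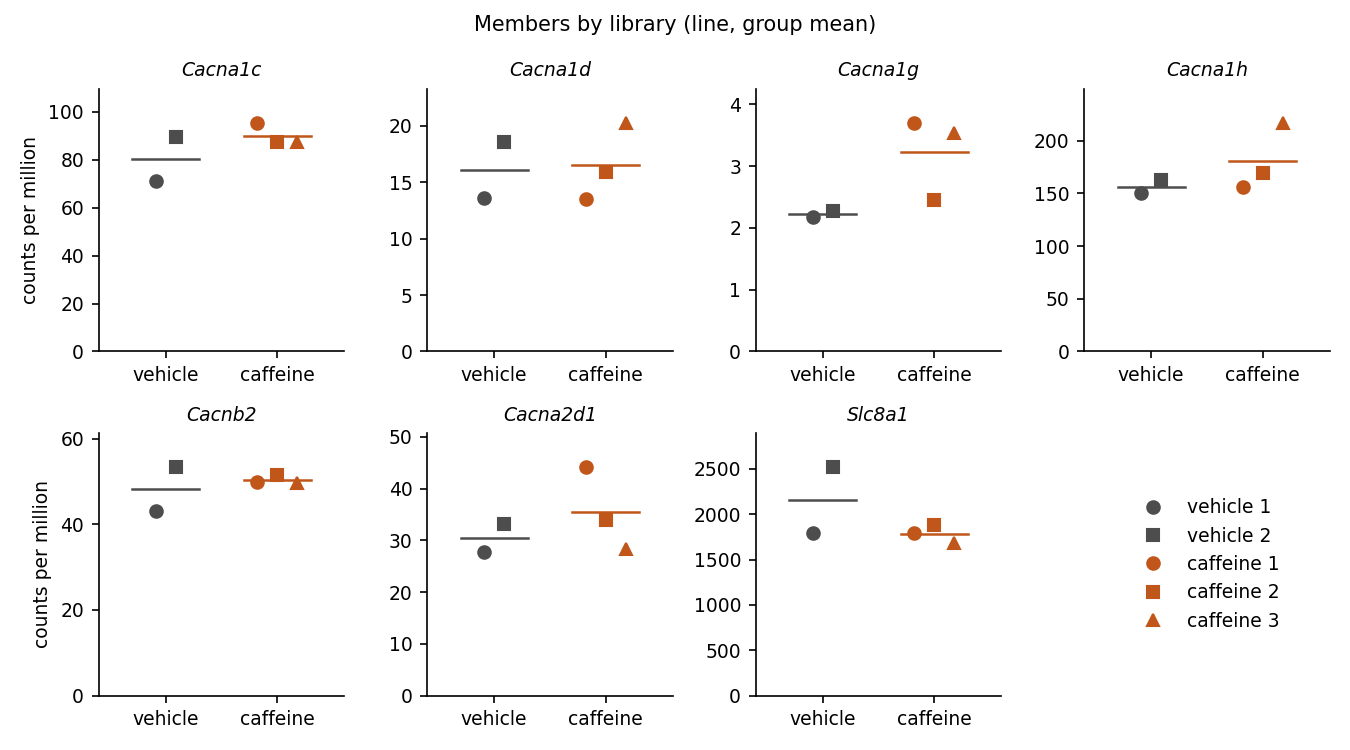
CPM of each member in the 2 vehicle (grey) and 3 caffeine (orange) libraries, with marker shapes for replicate numbers, lines for group means and axes that start at 0. The groups overlap for every member except Cacna1g, and vehicle replicate 2 is above vehicle replicate 1 in all 7 panels.

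The vehicle libraries differed from each other in the same direction for every member. All 7 were higher in vehicle replicate 2 than in vehicle replicate 1, by 1.04 times for Cacna1g to 1.40 times for Slc8a1. Over all genes tested, 49.1% were higher in vehicle replicate 2 and the median ratio was 0.995. Erythroid markers summed to 10683 CPM in vehicle replicate 1 and to 6148 CPM in vehicle replicate 2. In the same order, hepatic markers were at 7.70 and 119 CPM and heart muscle markers at 38197 and 34608 CPM. Their part in the member levels was not tested. For Slc8a1 the ratio of 1.40 between these replicates exceeded the 1.12 between the highest and lowest caffeine library. For Cacna2d1 the caffeine libraries were the wider group, 1.56 against 1.19.

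**Figure D3:**
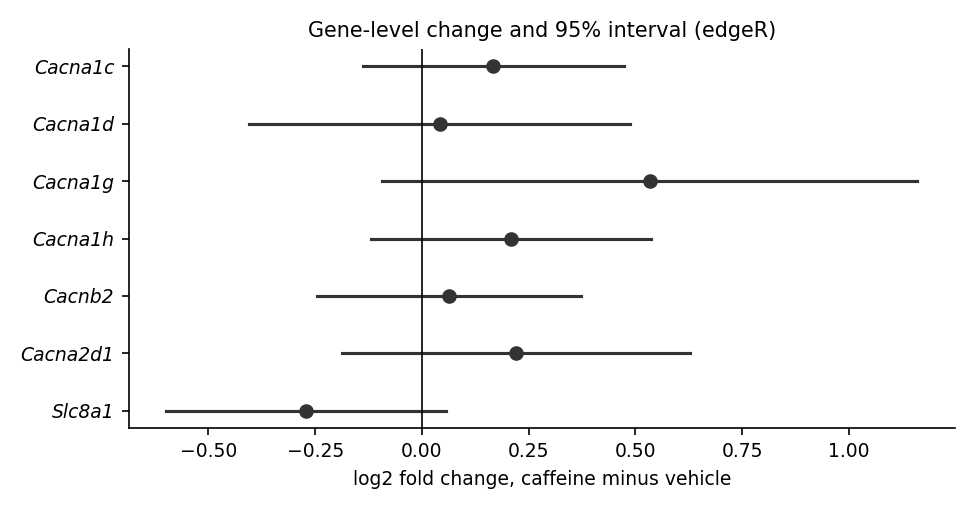
Log2 fold change of each member, caffeine minus vehicle, with its 95% interval from the edgeR fit (n = 2 vehicle and 3 caffeine libraries). Every interval includes 0, from Slc8a1 at -0.27 to Cacna1g at 0.53.

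The Slc8a1 count depended on which annotation was used. The deposited Ensembl gene table gave 12518 and 17704 counts with vehicle and 15979, 16631 and 13977 with caffeine, against 43532, 55253, 43121, 43891 and 37031 in the RefSeq table. The deposited Ensembl transcript table holds Slc8a1 as 3 transcripts. In GENCODE M21 the models of the same names have a 3′ untranslated region (UTR) of 3 to 170 bases, while a further model has 1 of 15589 bases at chr17:81373105-81388693, and the RefSeq gene ends at the same base. The models of the older Ensembl release were matched by name only. For the other members both tables gave nearly the same counts, apart from Cacna1c, where 4.47% to 8.83% of the RefSeq count was missing from the Ensembl count.

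The share of the Slc8a1 count found on RefSeq only was higher in both vehicle libraries than in any caffeine library. It was 71.2% and 68.0% with vehicle and 62.9%, 62.1% and 62.3% with caffeine (69.6% ± 2.32, SD, n = 2, against 62.4% ± 0.445, SD, n = 3). The RefSeq-only count was 1278 and 1710 CPM with vehicle and 1127, 1172 and 1046 CPM with caffeine, without overlap. The count on the Ensembl models was 516 and 806 CPM with vehicle and 664, 715 and 634 CPM with caffeine, with all caffeine values between the vehicle values. With Ensembl counts the log2 fold change of Slc8a1 was 0.03, so its direction rested on the RefSeq-only part.

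The log2 ratio of RefSeq-only to Ensembl counts of Slc8a1 was lower with caffeine by a difference of -0.46 (SE 0.12). In a limma fit over the 403 genes with enough counts in both parts, the adjusted p was 0.187 (0.0107 before adjustment), and 0% of those genes passed (13 genes without vehicle replicate 2). The median difference over these genes was -0.14, and 72 of the 403 were at or below the value of Slc8a1. The groups did not overlap for 49.6% of them, with 135 genes lower and 65 higher with caffeine. A further GENCODE gene, AC122399.1, lies over the end of the long UTR on the other strand, and reads of both cannot be told apart if counting did not use strand. Per kilobase of the longest of those 3 models, 3180 bases, the Ensembl count was 162 and 254 CPM with vehicle and 209, 225 and 199 CPM with caffeine. Slc8a1 thus led the members on either length. These values exceed the 91.0 to 136 CPM per kilobase on the longer model. Ratios of Slc8a1 to other genes therefore depend on the length used.

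**Figure D4:**
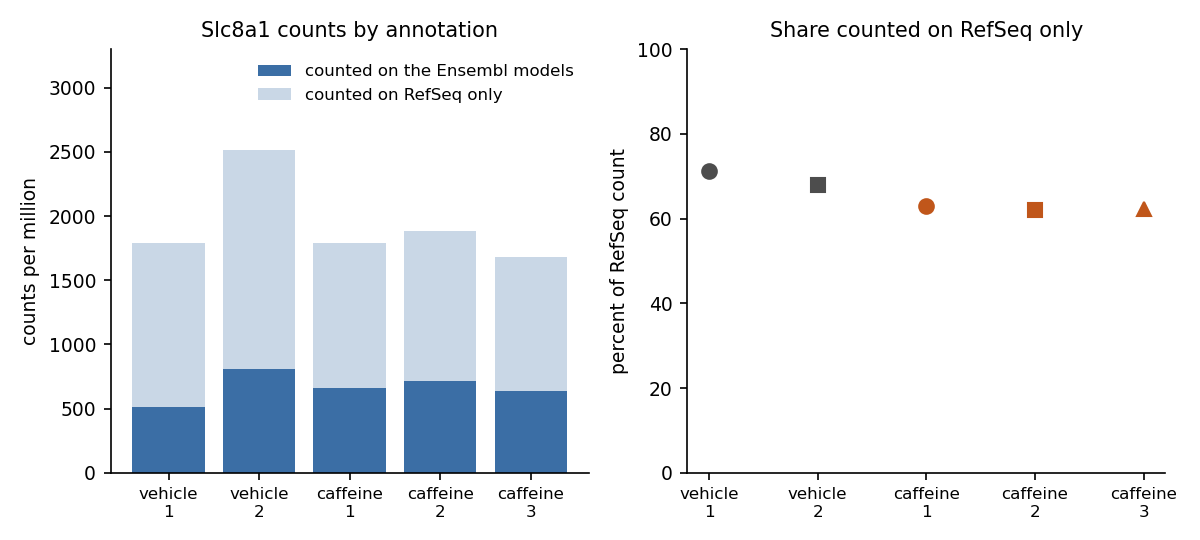
Left, Slc8a1 CPM per library, split into the count on the Ensembl models and the count on RefSeq only; right, the RefSeq-only part as a percent of the RefSeq count. The percent is 71.2 and 68.0 in vehicle pools and 62.1 to 62.9 in caffeine pools.

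Of the 28 member transcripts, 0 passed an adjusted p of 0.05, and 0% of all transcripts tested did (edgeR). At an unadjusted p under 0.05 there were 4, 3 of Cacna1c and 1 of Cacna1g, beside 7.36% of all transcripts tested. Vehicle and caffeine values were fully apart in 8 of 28 (28.6%), all higher with caffeine, beside 23.3% of all transcripts tested (12.2% apart and higher). Transcript usage, whether transcripts of a gene shift against each other, changed for 3.07% of the genes tested and for 0 of the 7 members (edgeR diffSpliceDGE, adjusted p of 0.424 for Cacna1c and 0.606 or more for the others). Transcripts of a gene share most of their sequence, so the division of reads among them carries an assignment error that these tests do not include. The 2 RefSeq transcripts of Slc8a1 each took between 49.9% and 50.1% of its count in every library, so the table does not separate them.

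The largest Cacna1c transcript, NM_009781, was at 21.6 and 26.8 CPM with vehicle and at 24.6, 20.6 and 16.7 CPM with caffeine, with a log2 fold change of -0.23 (SE 0.20). NM_001255997, which has the same start, was at 7.15 and 10.02 CPM with vehicle and at 11.3, 16.2 and 15.6 CPM with caffeine. Its log2 fold change was 0.74 (SE 0.25) at an adjusted p of 0.562 (edgeR). NM_001255999, also from that start, had a log2 fold change of 0.53 (SE 0.20) at an adjusted p of 0.615, again without overlap of the groups. NM_001256001, from the other start, was at 0.81 (SE 0.31) with an adjusted p of 0.636 (edgeR), also without overlap. These transcripts were picked out after their values were seen. For Cacna1h, NM_021415 took between 74.4% and 85.2% of the count in each library. All 5 transcripts of Cacna2d1 were higher with caffeine by the fitted value, with log2 fold changes of 0.02 to 0.43. Without caffeine replicate 1, NM_001110844 was at -0.12 and NM_001110845 at -0.21, and without vehicle replicate 1 the latter was at -0.17.

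Cacna1c, Cacna1d and Cacnb2 each have transcripts from more than 1 start. In the heart, Cacna1c is known to use the upstream start, which gives the longer N-terminus. For Cacna1c the upstream start at chr6 position 119196409 carried 71.0% and 79.5% of the count with vehicle and 75.6%, 78.8% and 71.0% with caffeine, with the rest at 119108189. For Cacna1d the upstream start at chr14 position 30491156 carried 85.8% and 76.4% with vehicle and 82.5%, 79.2% and 80.2% with caffeine, with the rest at 30353486. For Cacnb2 the most upstream start at chr2 position 14604306 carried 86.1% and 94.6% with vehicle and 92.8%, 91.4% and 94.8% with caffeine. The later starts at 14824092 and 14873656 carried up to 8.14% and 5.71%. All 3 genes thus drew most of their count from the most upstream start in every library. The groups overlapped for each, with differences of -0.09, -0.44 and 2.61 percentage points in turn (exact permutation p of 0.6 to 1, adjusted p = 1).

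**Figure D5:**
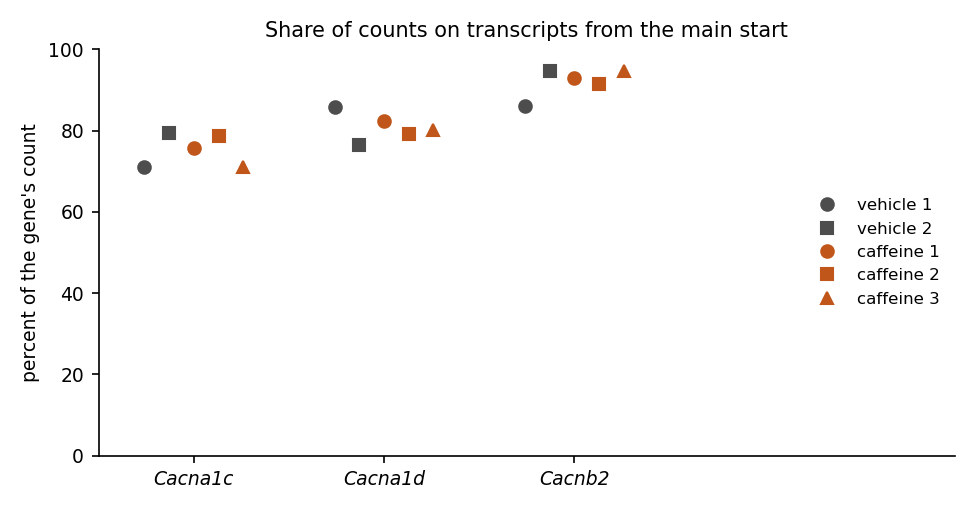
Percent of the count of Cacna1c, Cacna1d and Cacnb2 on transcripts from the most upstream start, with 1 point per library (grey vehicle, orange caffeine). The shares are 71.0 to 79.5, 76.4 to 85.8 and 86.1 to 94.8, and the groups overlap for each gene.

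The sequences in front of these starts are shown because they differ in base composition between the start that carried most counts and the one that carried few. Each is the 200 bases before the first transcribed base, from RefSeq promoter windows on GRCm38.p6, with every CG in capitals. Windows were listed for 5 of the 7 members, not for Cacna1g and Cacna1h, and those printed begin at the deposited starts exactly.
Cacna1c main start, chr6:119196410-119196609, minus strand: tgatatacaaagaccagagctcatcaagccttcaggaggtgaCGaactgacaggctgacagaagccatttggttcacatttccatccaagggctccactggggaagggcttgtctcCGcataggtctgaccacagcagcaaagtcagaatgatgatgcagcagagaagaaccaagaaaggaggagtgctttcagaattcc
Cacna1d main start, chr14:30491157-30491356, minus strand: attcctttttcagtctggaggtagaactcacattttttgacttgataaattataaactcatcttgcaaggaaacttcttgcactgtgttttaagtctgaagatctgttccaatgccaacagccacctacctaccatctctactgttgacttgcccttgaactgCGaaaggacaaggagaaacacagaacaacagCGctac
Cacna1d second start, chr14:30353487-30353686, minus strand: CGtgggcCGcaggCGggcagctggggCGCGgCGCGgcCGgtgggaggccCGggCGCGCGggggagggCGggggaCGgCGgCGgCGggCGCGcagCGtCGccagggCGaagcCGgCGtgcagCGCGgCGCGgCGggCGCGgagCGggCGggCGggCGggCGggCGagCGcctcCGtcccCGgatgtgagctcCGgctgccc
Cacnb2 main start, chr2:14604106-14604305, plus strand: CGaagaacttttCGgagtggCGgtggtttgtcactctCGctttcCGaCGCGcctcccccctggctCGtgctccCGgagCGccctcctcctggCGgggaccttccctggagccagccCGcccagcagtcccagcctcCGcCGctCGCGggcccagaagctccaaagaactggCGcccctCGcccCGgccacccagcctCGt
Cacnb2 second start, chr2:14823892-14824091, plus strand: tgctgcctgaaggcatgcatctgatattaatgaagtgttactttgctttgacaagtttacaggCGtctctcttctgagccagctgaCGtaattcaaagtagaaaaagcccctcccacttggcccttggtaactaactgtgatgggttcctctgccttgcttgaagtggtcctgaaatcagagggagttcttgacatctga
The main starts of Cacna1c and Cacna1d each had 2 CG in the window, a count reached by 76.7% of the 32851 promoter windows. The second start of Cacna1d had 41, reached by 0.0883% of windows. Cacnb2 had the opposite order, with 20 CG at its main start (reached by 12.7% of windows) and 2 at its second. The main start of Cacna1c lies inside Dcp1b and that of Cacna1d inside Dcp1a, in neither case within an annotated exon of those genes. The window at the main start of Cacnb2 holds exon sequence of Gm10849, a pseudogene on the other strand. The second Cacna1c start has its nearest RefSeq window 306 bases away and is not shown.

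Of the 48 other symbols listed for the pathway, 34 were tested, 16 higher and 18 lower by the fitted value. Slc8b1 and Slc24a6 among the 48 name the same gene, which was counted under Slc24a6. By edgeR, 0 of the 34 passed an adjusted p of 0.05. An unadjusted p under 0.05 was reached by 3 of the 34, beside 5.2% of all genes. The median log2 fold change of the 34 was -0.0040, beside 0.01 over all genes. Vehicle and caffeine values were fully apart in 10 of the 34 (29.4%, beside 20.4% of all genes).

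Among other pore genes, 4 of 7 were tested. Cacna1a, the P/Q-type pore, was at 5.15 and 4.05 CPM with vehicle and at 6.73, 6.02 and 8.76 CPM with caffeine, with a log2 fold change of 0.64 (SE 0.24) at an adjusted p of 0.912 (edgeR). The groups did not overlap. Cacna1s, the skeletal muscle L-type pore, was between 1.41 and 4.22 CPM, and per length Cacna1c was between 16.0 and 52.1 times higher.

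Among auxiliary subunits, 7 of 13 in the table were tested. Cacna2d2, another alpha2delta gene, was the main one of its class: it was at 280.5 and 331 CPM with vehicle and at 224, 287 and 371 CPM with caffeine. Per length this was between 6.81 and 17.6 times Cacna2d1, the lowest and highest ratios both in caffeine libraries. Cacnb3, another beta subunit, was at 14.4 and 12.3 CPM with vehicle and at 21.2, 15.4 and 16.9 CPM with caffeine. Its log2 fold change was 0.42 (SE 0.18) at an adjusted p of 0.949 (edgeR). Cacnb2 exceeded Cacnb3 per length by between 1.63 and 2.99 times.

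Among regulators of the channels, 11 of 13 were tested, 5 higher and 6 lower. Calm2, a gene for calmodulin, the calcium sensor that inactivates L-type channels, was at 320 CPM and 301 CPM with vehicle and at 239, 255 and 223 CPM with caffeine. Its log2 fold change of -0.38 (SE 0.12) had the smallest p of the list (0.00809 by edgeR) and an adjusted p of 0.765. Calm3, which encodes the same protein, had a log2 fold change of -0.07. Rrad, a small GTPase that restrains L-type channels, was at 208 and 177 CPM with vehicle and at 246, 192 and 179 CPM with caffeine. Per length it was between 10.2 and 15.1 times Cacna1c.

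Among other calcium exporters, 12 of 13 in the table were tested, 4 higher and 8 lower. Slc8a1 exceeded its paralog Slc8a2 per length by between 40.1 and 71.6 times, and Slc8a3 was between 0.681 and 1.18 CPM. The plasma membrane calcium pumps Atp2b4 and Atp2b1, which export calcium at the cost of ATP, had log2 fold changes of -0.02 and -0.13. Per length Slc8a1 was between 3.83 and 4.92 times Atp2b4. Fxyd1, a small protein that inhibits the exchanger, ranged from 50.4 to 105 CPM, lowest in vehicle replicate 2 and highest in caffeine replicate 1.

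The genes whose pattern over the 5 libraries was nearest to that of Slc8a1 were Rbm25, Setd2 and Herc1. Nearness was the Euclidean distance of log2 CPM centred on each gene's mean, among 11946 genes, and was 0.0463, 0.0762 and 0.0823. Rbm25 was at 119 and 165 CPM with vehicle and at 122, 125 and 112 CPM with caffeine. Like Slc8a1 it was high in vehicle replicate 2 alone, which follows from the choice by nearness. Near to Cacna1c by the same measure were 4833420G17Rik (0.0236) and Zfp180 (0.0467). Through the same choice they shared its low value in vehicle replicate 1.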

How the data were processed

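RNA of 5 pools of E10.5 mouse ventricles was sequenced on an Illumina HiSeq from TruSeq libraries, per the labels. The authors deposited estimated counts, which need not be whole, per gene and per transcript on RefSeq and on Ensembl release 71 annotations, per the file headers. Partek, TopHat and the build mm10 (GRCm38) are listed in the submitters' processing notes. The counts were rounded. Genes with low counts were removed by filterByExpr, libraries were scaled by TMM, and edgeR 4.0.16 in R 4.3.3 gave two-sided quasi-likelihood tests (robust) with Benjamini-Hochberg adjustment over all features and a threshold of 0.05. The SE was taken as log2 fold change divided by the root of the F value. CPM uses the TMM-scaled library sizes, and lengths are exonic lengths of the longest coding GENCODE M21 transcript. Deposited stop coordinates lay 1 base past the end, so 1 was subtracted. RefSeq-only counts are RefSeq minus Ensembl counts of the same symbol, log2 ratios of which were tested with limma 3.58.1 in genes with at least 50 counts in each part and 10% outside. Other tests were exact permutations (scipy 1.17.1).

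All members and all their tested transcripts were examined, together with pathway genes with a mean of at least 1 CPM and the 3 genes nearest in pattern to Slc8a1 and Cacna1c. The text describes some of these, chosen after their values were seen. A pathway gene and a gene near in pattern are not reported here. The members and lists were chosen with earlier results of these data known, and the Slc8a1 ratio and the start shares were added after seeing the data. Alternatives were other scalings and filters, DESeq2 1.42.0, limma-voom, Ensembl counts, a replicate block, heart muscle markers as a covariate and leaving out each library. The steps were tested on simulated data. The replicates are pools, so the edgeR and limma tests judge differences against the spread between pools, not between single embryos.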

Additional observations from a re-analysis of the deposited data

How the results depend on the processing

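No member passed an adjusted p of 0.05 in any of the 111 alternative fits of the 7 members (lowest adjusted p 0.629), and Cacna1g and Cacna1h kept a positive log2 fold change in each that held them (Cacna1g did not reach the filter of 5 CPM). With heart muscle markers as a covariate the log2 fold change was -0.13 for Cacna1c, -0.27 for Cacna1d, -0.18 for Cacnb2 and -0.079 for Cacna2d1, and with Ensembl counts it was 0.026 for Slc8a1. The cause was not tested. Leaving out each library gave -0.17 to 0.25 for Cacna1d, -0.082 to 0.20 for Cacnb2, -0.043 to 0.057 for the median of the pathway list and -0.27 to 0.054 for NM_001163691. The pathway median was 0.058 without scaling, which moved the median of all genes to 0.07. Leaving out each library gave -1.43 to 2.61 percentage points for the T-type share. For Cacna1d in the RNA of Cacna1c and Cacna1d it gave -2.61 to 0.42. For the main starts of Cacna1c, Cacna1d and Cacnb2 it gave -4.33 to 4.15, -5.14 to 4.26 and -1.63 to 6.86.

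Over all genes, 6 passed without a count filter, 18 with DESeq2, 2 with Ensembl counts, 0 with the covariate and 0 to 18 on leaving out each library, against 1. For transcripts 0 to 1 passed on leaving out each library. For usage 28 genes passed with the Simes adjustment and 15 to 53 on leaving out each library, against 89. Replicate numbers are not stated to pair pools. Deviations of same-numbered pools correlated at -0.02 and 0.13, and those of vehicle replicate 1 and caffeine replicate 3 at 0.13. The deviations of the 2 vehicle libraries mirror each other, so these values cannot tell whether pools were paired. With the replicate block, in which caffeine replicate 3 has no partner, 52 genes, 9 transcripts and 3 usage genes passed, 0 of them members, and Cacna1d was at -0.12. The Slc8a1 ratio difference was -0.58 to -0.35 on leaving out each library (limma adjusted p 0.0992 to 0.397), and 13 of the 403 genes passed without vehicle replicate 2, against 0. With 50 to 89 counts, Cacna1g has the widest interval of the members, and 2 vehicle libraries limit all of them.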
